A study of Homo sapiens with 6 samples.

Results

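Aminoacyl-tRNA synthetases join each amino acid to its tRNA, and the charged tRNA is what the ribosome uses to read a codon. Human cells run this step in the cytosol and again inside mitochondria, where most of the enzymes are encoded by separate nuclear genes whose symbols end in 2. In the cytosol a group of these enzymes is held on scaffold proteins as the multisynthetase complex, and several of the genes are known targets of ATF4, the transcription factor that answers uncharged tRNA and other stresses. The members described here were the rows of the deposited table named after 36 such genes, 20 of cytosolic and 16 of mitochondrial enzymes, out of 23228 gene rows. The symbols in the table are the older ones without the suffix 1 (AARS for AARS1). GARS and KARS were counted as cytosolic, although each is a single gene whose product works in both compartments.

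RNA was sequenced from SaOS-2 cells, an osteosarcoma line that lacks functional RB, carrying a vector from which the CDK inhibitor p21 is expressed when doxycycline is added. The p21 ON group held 3 libraries from cells given 1 μg/ml doxycycline, for 24 h by the sample labels, and the p21 OFF group held 3 libraries from untreated cells of the same engineered line. The comparison asks which transcripts change when p21 is induced in this line. All libraries carried the vector and none had doxycycline without it, so an effect of p21 and an effect of the drug, which can inhibit mitochondrial translation, cannot be told apart. Whether the line was a clone is not given in the sources used here, and the study calls the libraries of a group biological replicates, but the labels do not say that they came from separate cultures. The p-values therefore measure only the spread between these libraries, which may be technical. Reads on genes numbered 12795490, 20914151 and 21975045 with p21 OFF and 13440402, 12918390 and 16630552 with p21 ON. Values are normalised read counts, in which the reads of each library were divided by its DESeq2 size factor, and they are relative to the whole library, so a change in RNA per cell cannot be seen.

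CDKN1A, which encodes p21, had 1257, 1187 and 1355 normalised read counts with p21 OFF and 40470, 43863 and 46739 with p21 ON (log2 fold change 5.11, limma adjusted p = 1.12e-19). Of the osteoblast markers, RUNX2, SP7, ALPL, COL1A1 and SPARC were abundant, with RUNX2 at 3028 to 3746 and ALPL at 35363 to 38901 normalised read counts over the 6 libraries. IBSP lay between 95.5 and 139, COL1A2 and SPP1 were below 5 in every library, and BGLAP was listed at 0. IBSP was called lower with p21 ON (log2 fold change -0.38, limma adjusted p = 0.0264), and its groups did not overlap. COL1A1 had all p21 ON libraries above all p21 OFF libraries but was not called (log2 fold change 0.14, limma adjusted p = 0.103). RUNX2, SP7, ALPL and SPARC were not called, and their groups overlapped. Of the markers of other cell types, PTPRC, CD3E, PECAM1, CDH5, CDH1 and KRT19 ranged from 0 to 16.3, whereas CD68 reached 933 and EPCAM 374.

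The TGATGNAA element, where N is any base, is the core of the C/EBP-ATF composite site through which ATF4 acts. It was searched on both strands from 250 bases before to 50 bases after the start of each gene's canonical transcript, and it was found for 8 of the 20 cytosolic genes and for 1 of the 16 mitochondrial genes. Of the 12620 tested genes with an annotated start, 1.55% held it. The stretches of 7 of the cytosolic genes and of the mitochondrial gene are shown, because they divide the cytosolic genes in a way that the fold changes can be set against. Each is 24 bases of GRCh37, read 5′ to 3′ on the strand that spells the element, with the element in capitals.
CARS, chr11:3078640-3078663, plus strand: ctagaatcTGATGCAAccgccgcc
GARS, chr7:30634453-30634476, minus strand: tcggagcaTGATGAAAtcgccgcg
IARS, chr9:95055977-95056000, plus strand: cacggaggTGATGCAAcgcgctga
MARS, chr12:57881839-57881862, minus strand: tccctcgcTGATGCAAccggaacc
NARS, chr18:55289039-55289062, minus strand: acgctctcTGATGCAAcgccggaa
TARS, chr5:33441065-33441088, minus strand: ggaccagcTGATGCAAtcgaaagg
YARS, chr1:33282941-33282964, minus strand: agcccagcTGATGCAAcctggctg
YARS2, chr12:32909013-32909036, minus strand: cacactgcTGATGGAAaaattaag
In 7 of the 8 cytosolic genes the element read TGATGCAA, and in 6 of the 8 it began within 15 bases of the annotated start, on either side of it.
A match is a run of letters and not a measured binding site. A window without a match does not show that a gene lacks the element, which may lie elsewhere or near another start. TTTGAA, a form of the CHR element of G2/M promoters, was in the same window of none of the 36 genes and of 9.06% of the tested genes with an annotated start. The E2F-like run TTTCCCGC was in the window of RARS2 alone among the 36 and of 2.74% of tested genes, and TTTGGCGC was in none of the 36 and in 1.07%.

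Most synthetase transcripts were slightly lower in p21 ON than in p21 OFF cells, and few of the differences passed the test. Of the 20 cytosolic genes 1 was called higher (AARS), 6 were called lower (KARS, FARSA, RARS, LARS, SARS and NARS) and 13 were not called, taking limma adjusted p-values under 0.05 as calls. The background was 10.5% of the 13255 genes tested called higher and 12.7% called lower (23.2% in either direction), where 5% and 30% of the cytosolic genes were. Of the 16 mitochondrial genes none was called higher, 3 were called lower (AARS2, TARS2 and IARS2) and 13 were not called; at an unadjusted p under 0.05, 1 was higher and 5 were lower, and of the cytosolic genes 1 and 7, where 17.8% of all genes tested were higher and 19.1% lower at that threshold. Called lower were thus 18.8% of the mitochondrial genes. All 36 genes passed the filter on low values, a mean of at least 10, and the lowest mean was 70.0 for FARS2. The log2 fold change was below 0 for 15 of 20 cytosolic and 14 of 16 mitochondrial genes, beside 48.9% of all genes tested and 55.2% of genes with a mean of at least 200, a level chosen after the values were seen. Among genes at that level 10.4% were called higher and 16.5% lower. At a threshold of 0.01 on the adjusted p, AARS was higher and AARS2 and TARS2 were lower, against 4.65% of all genes higher and 6.65% lower.

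The number of cytosolic genes called lower depended on the test and on single libraries, and so did the background. With edgeR on the reads recovered from the table it was 3 in place of 6, where 10.6% of all genes were called higher and 12.4% lower with TMM (10.6% and 12.6% with DESeq2 size factors), and it was also 3 with DESeq2, where 8.56% were higher and 10.8% lower. Without a filter on low values it was 3 (6.91% higher and 8.35% lower), and with the replicate number as a block it was 2 (10.6% and 11.4%). With scaling by library size alone it was 2, and the split over all genes changed from 1393 higher and 1681 lower to 2034 higher (15.3%) and 1194 lower (9.01%). Without p21 OFF replicate 2 it was 1 (9.29% of all genes higher and 10.4% lower), without p21 ON replicate 1 it was 1 (5.24% and 6.69%) and without p21 ON replicate 3 it was 1 (5.58% and 8.13%). It was 3 without p21 OFF replicate 3 (11.2% and 12.5%) or p21 ON replicate 2 (8.65% and 11.0%), and 4 without p21 OFF replicate 1 (10.4% and 12.2%). With TMM scaling, other pseudocounts or at least 10 reads in every library the background was 10.5% to 10.9% higher and 12.5% to 13.4% lower.

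**Figure D1:**
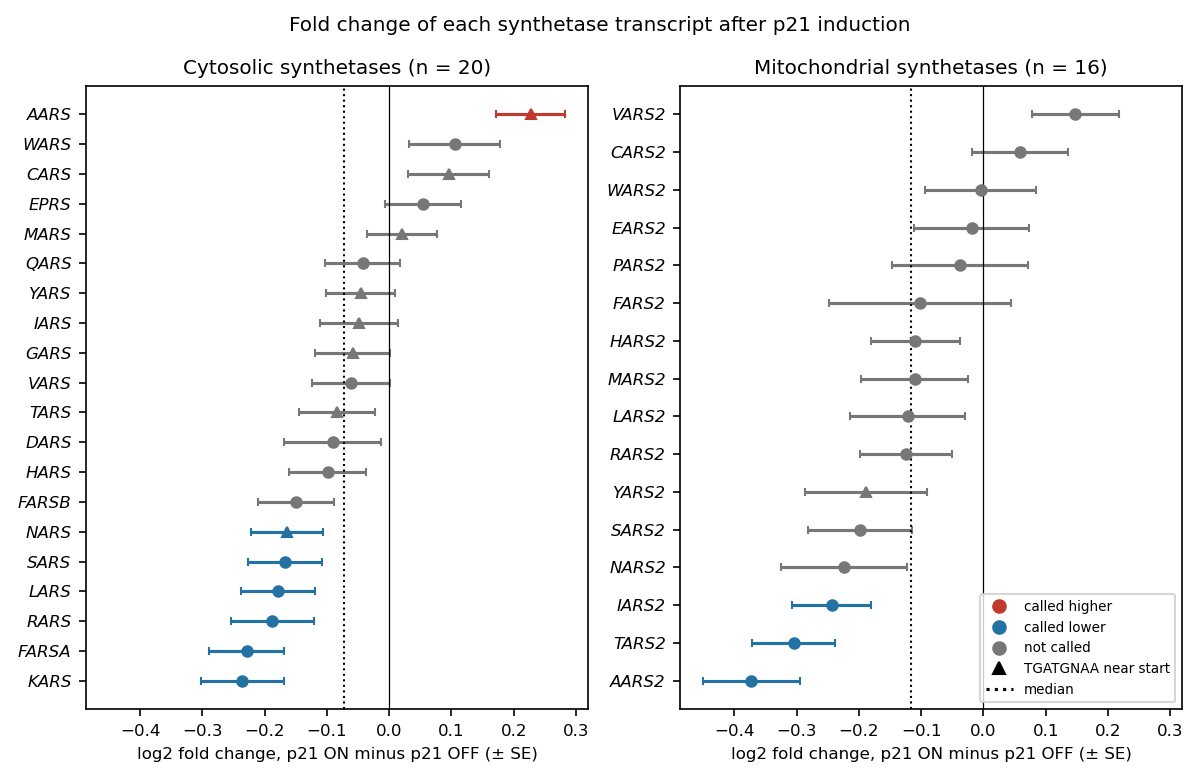
Log2 fold change with its standard error for the 20 cytosolic and 16 mitochondrial synthetases, p21 ON minus p21 OFF (n = 3 each); red and blue mark genes called higher and lower by limma, triangles mark genes with TGATGNAA near the start, and the dotted line is the median of the list. AARS lies apart on the right at 0.23, and AARS2 is lowest at -0.37.

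The alanyl enzymes moved in opposite directions. AARS, on chromosome 16 of GRCh37 from 70285886 to 70323610, charges alanine in the cytosol. It had 4257, 4178 and 4178 normalised read counts with p21 OFF and 4831, 4999 and 4936 with p21 ON. The groups were separate, with p21 ON higher, and the log2 fold change was 0.23 (standard error, SE, of 0.06, limma adjusted p = 0.00694), a rise of 17.1%. AARS2, on chromosome 6 from 44266468 to 44281084, encodes the mitochondrial alanyl enzyme. It had 509, 548 and 535 normalised read counts with p21 OFF and 426, 418 and 386 with p21 ON. All p21 ON libraries were lower, with a log2 fold change of -0.37 (SE 0.08, limma adjusted p = 0.00243), the lowest of the 36 genes. Exons of genes on the opposite strand cover 4.90% of the AARS2 transcript, and the strand setting of the counting is not given in the sources used here. Both calls were made in all 11 other settings of the test and with any of the 6 libraries left out.

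Among the mitochondrial enzymes the other calls were TARS2 and IARS2, for threonine and isoleucine. TARS2, on chromosome 1 from 150459890 to 150480078, had 1024, 965 and 962 normalised read counts with p21 OFF and 808, 815 and 766 with p21 ON, with no overlap. Its log2 fold change was -0.30 (SE 0.07, limma adjusted p = 0.00348), and it was called in all 11 other settings and without any of the 6 libraries. IARS2, on chromosome 1 from 220267474 to 220321383, had 1552, 1531 and 1520 with p21 OFF and 1279, 1374 and 1238 with p21 ON. The groups again did not overlap, with a log2 fold change of -0.24 (SE 0.06, limma adjusted p = 0.0103), and the call was lost with 2 of the 6 libraries left out in turn. VARS2, for valine, was on the other side, with a log2 fold change of 0.15 (limma adjusted p = 0.133), and its groups overlapped. Exons of another annotated gene on the same strand cover 100% of the VARS2 transcript, and those of a different one cover 77.5% of that of SARS2. The remaining mitochondrial genes ranged from -0.22 for NARS2 to 0.06 for CARS2. Over all 16 genes 4 had separate groups with p21 ON lower and none had separate groups with p21 ON higher, against 21.3% and 19.1% of all genes tested. Among the cytosolic genes the numbers were 9 and 1 of 20.

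The cytosolic genes called lower fell by 0.16 to 0.24 on the log2 scale. FARSA encodes the catalytic subunit of the phenylalanyl enzyme and lies on chromosome 19 from 13033293 to 13044851. It had 2336, 2232 and 2144 normalised read counts with p21 OFF and 1916, 1874 and 1933 with p21 ON, below all p21 OFF libraries. Its log2 fold change of -0.23 (SE 0.06, limma adjusted p = 0.0107) passed the threshold in all 11 other settings and with any library left out. FARSB, the other subunit of the same enzyme, also had all p21 ON libraries below all p21 OFF libraries, with a log2 fold change of -0.15 that was not called (limma adjusted p = 0.0835). With the trend on transcript length removed the subunits changed order, to -0.15 for FARSA (limma adjusted p = 0.0368) and -0.24 for FARSB, which was then called (limma adjusted p = 0.00632, range over its alternatives 0.00632 to 0.254). KARS, for lysine in both compartments, lies on chromosome 16 from 75661372 to 75682541. It had 2370, 2520 and 2421 normalised read counts with p21 OFF and 1998, 2283 and 1941 with p21 ON. The p21 ON libraries were the lower ones and also the more scattered, and the log2 fold change was -0.24 (SE 0.07, limma adjusted p = 0.0173). The call held in 10 of 11 other settings and with 3 of the 6 libraries left out.

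The other cytosolic calls lay close to the threshold. LARS, the leucyl enzyme on chromosome 5, had 2078, 2033 and 2108 normalised read counts with p21 OFF and 1882, 1857 and 1759 with p21 ON, a log2 fold change of -0.18 (limma adjusted p = 0.0377). NARS, the asparaginyl enzyme on chromosome 18, had 3292, 3313 and 3195 with p21 OFF and 2856, 3050 and 2844 with p21 ON, a log2 fold change of -0.16 (limma adjusted p = 0.0489). RARS, the arginyl enzyme on chromosome 5, had 1545, 1393 and 1342 with p21 OFF and 1247, 1250 and 1253 with p21 ON, a log2 fold change of -0.19 (limma adjusted p = 0.0491). In each of these genes the groups did not overlap, and in RARS the p21 OFF libraries carried nearly all of the spread. SARS, the seryl enzyme on chromosome 1, had a log2 fold change of -0.17 (limma adjusted p = 0.0495). With 1 library left out in turn, the call held for 1 of 6 libraries in LARS, 2 in NARS, 1 in RARS and 0 in SARS. Of the 11 other settings it held in 9 for LARS, 5 for NARS, 3 for RARS and 4 for SARS, and with the length trend removed SARS moved to -0.093.

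**Figure D2:**
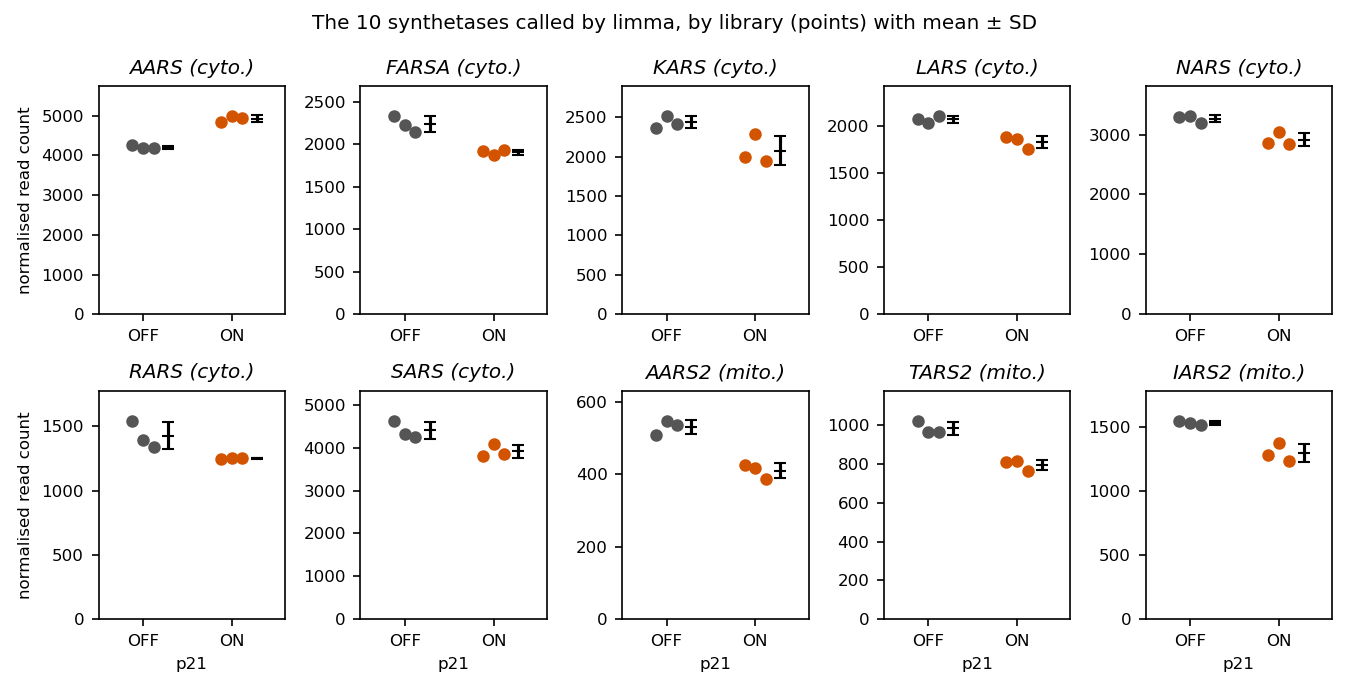
Normalised read count (vertical axis from 0) of the 10 synthetases called by limma in each p21 OFF and p21 ON library, with the mean ± SD (n = 3) beside the points. In every panel the groups are separate, with AARS higher in p21 ON and the other 9 lower.

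GARS, for glycine in both compartments, was not called. It had 4020, 3964 and 3728 normalised read counts with p21 OFF and 3559, 3875 and 3812 with p21 ON, overlapping groups with a log2 fold change of -0.06 (SE 0.06, limma adjusted p = 0.507). Exons of a divergent gene on the opposite strand cover 10.9% of its transcript. WARS (tryptophan), CARS (cysteine), EPRS (glutamate and proline) and MARS (methionine) had log2 fold changes of 0.11, 0.10, 0.05 and 0.02, and none of them was called. These values moved with single libraries. WARS was at 0.054 without p21 OFF replicate 1, EPRS at 0.013 without p21 ON replicate 2 and MARS at -0.00039 without p21 ON replicate 3. The other cytosolic genes that were not called ranged from -0.15 for FARSB to -0.04 for QARS. The histidyl genes HARS and HARS2 lie head to head on chromosome 5 and overlap, and had log2 fold changes of -0.10 and -0.11, neither of them called. Leaving GARS and KARS out of the cytosolic list gave 1 gene higher and 5 lower of 18, beside 10.5% and 12.7% of all genes tested.

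The cytosolic and mitochondrial lists were then set side by side. The median log2 fold change was -0.07 over the cytosolic genes (interquartile range -0.16 to -0.03) and -0.12 over the mitochondrial genes (-0.20 to -0.03). The median of all genes tested was 0.0056 (-0.14 to 0.17), and that of genes with a mean of at least 200 was -0.026 (-0.15 to 0.10). Under scaling by library size alone the list medians were -0.028 and -0.072 and that of all genes 0.049, and without p21 ON replicate 2 the cytosolic median was -0.11. The cytosolic median was higher than the mitochondrial one by 0.04, and this value moved with single libraries, to 0.018 without p21 OFF replicate 3 and 0.067 without p21 ON replicate 1, and to 0.017 with a trend on transcript length removed. The same contrast was also taken within each library, as the cytosolic minus the mitochondrial median of log2 values centred on each gene's mean over the libraries. It was -0.015, -0.0012 and -0.093 with p21 OFF and 0.025, 0.034 and 0.021 with p21 ON, so the groups did not overlap. The difference between the group means was 0.063, where the SD was 0.049 in p21 OFF and 0.0064 in p21 ON libraries (n = 3 each). With list means in place of medians the difference over all libraries was 0.055, with SDs of 0.019 and 0.018 and again no overlap. No p-value is given for these scores, because the members were chosen with results known. The permutation p-values given below for single pairs carry the same limit. Summed over the list, the cytosolic genes had 60850, 60524 and 59821 normalised read counts with p21 OFF and 56890, 59953 and 57492 with p21 ON, so the groups overlapped. The mitochondrial sums were 9199, 8903 and 8948 with p21 OFF and 8232, 8372 and 8110 with p21 ON, which did not overlap and whose mean was lower by 8.64% of the p21 OFF mean (percent change -8.64). As a share of all reads the cytosolic genes took 0.372% ± 0.0055 in p21 OFF and 0.369% ± 0.0099 in p21 ON libraries, and the mitochondrial genes 0.0556% ± 0.0014 and 0.0524% ± 0.00096 (SD, n = 3 each).

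Per length, the cytosolic transcripts were the more abundant. With p21 OFF the median was 1083 normalised read counts per kb of canonical transcript over the cytosolic genes, from 280 for WARS to 2302 for SARS. Over the mitochondrial genes it was 114, from 43.1 for FARS2 to 467 for RARS2, and over the tested genes with an annotated length it was 150. In all 16 pairs of genes for the same amino acid the cytosolic gene had the higher level per kb, by 1.36-fold in the cysteine pair and by 28.7-fold in the phenylalanine pair. EPRS was paired with both EARS2 and PARS2, so the pairs do not all hold separate genes. The phenylalanine pair used FARSA, at 1235 per kb with p21 OFF. FARSB, the gene of the other subunit, was at 455 per kb and was not paired, so the largest ratio depends on that choice. Mitochondrial synthetase rows outside the member list, if any, were not analysed, and no aspartate pair was formed.

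**Figure D3:**
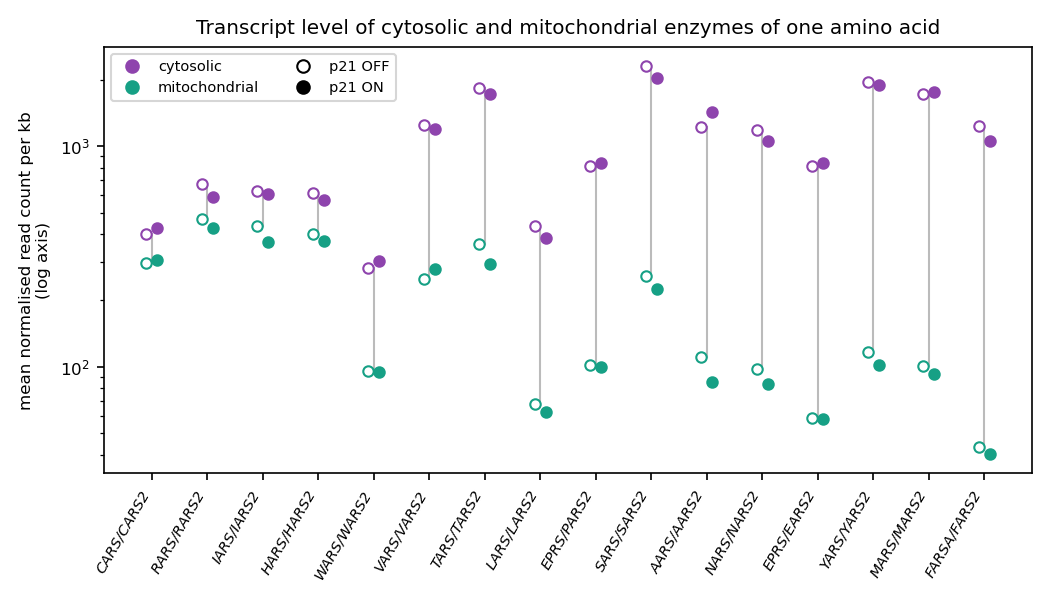
Mean normalised read count per kb of canonical transcript (log axis, n = 3 per group) of the cytosolic (purple) and mitochondrial (green) gene of each pair, open with p21 OFF and filled with p21 ON. The cytosolic gene is above its mitochondrial partner in all 16 pairs, and the p21 ON level stays close to the p21 OFF level of the same gene.

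The ratio of the cytosolic to the mitochondrial transcript of 1 amino acid within a library does not depend on how libraries are scaled. The ratio of AARS to AARS2 normalised read counts was 8.37, 7.62 and 7.81 with p21 OFF and 11.3, 11.96 and 12.8 with p21 ON. All p21 ON libraries lay above all p21 OFF libraries, and the log2 ratio was 2.98 ± 0.07 with p21 OFF and 3.58 ± 0.09 with p21 ON (SD, n = 3 each). By an exact permutation test, two-sided, p was 0.1, which is the lowest value that 3 libraries against 3 can give (0.32 after Benjamini-Hochberg adjustment over the 16 pairs). The difference of 0.60 was the largest of the 16.

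For TARS to TARS2 the ratio was 4.90, 5.02 and 4.99 with p21 OFF and 5.51, 6.11 and 5.77 with p21 ON. The log2 ratio was higher by 0.22 without overlap, and TARS itself had a log2 fold change of -0.08 (limma adjusted p = 0.340). VARS to VARS2 went the other way, with ratios of 5.16, 5.91 and 6.25 with p21 OFF and 4.84, 5.11 and 4.99 with p21 ON, a log2 difference of -0.21 between groups that did not overlap. IARS to IARS2 and MARS to MARS2 were separate too, with log2 differences of 0.19 and 0.13, the latter 0.075 without p21 ON replicate 3. For each of these pairs the exact permutation p was 0.1 and the adjusted value 0.32, and this test cannot reach a threshold of 0.05 with 3 libraries against 3. In the other 11 pairs the groups overlapped, with differences from -0.13 for FARSA to FARS2 up to 0.14 for YARS to YARS2. Of the 16 pairs, 4 were thus separate with p21 ON above and 1 with p21 ON below. Among single genes tested, 19.1% had all p21 ON libraries above all p21 OFF libraries and 21.3% all below. No such share was taken over ratios of other genes.

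**Figure D4:**
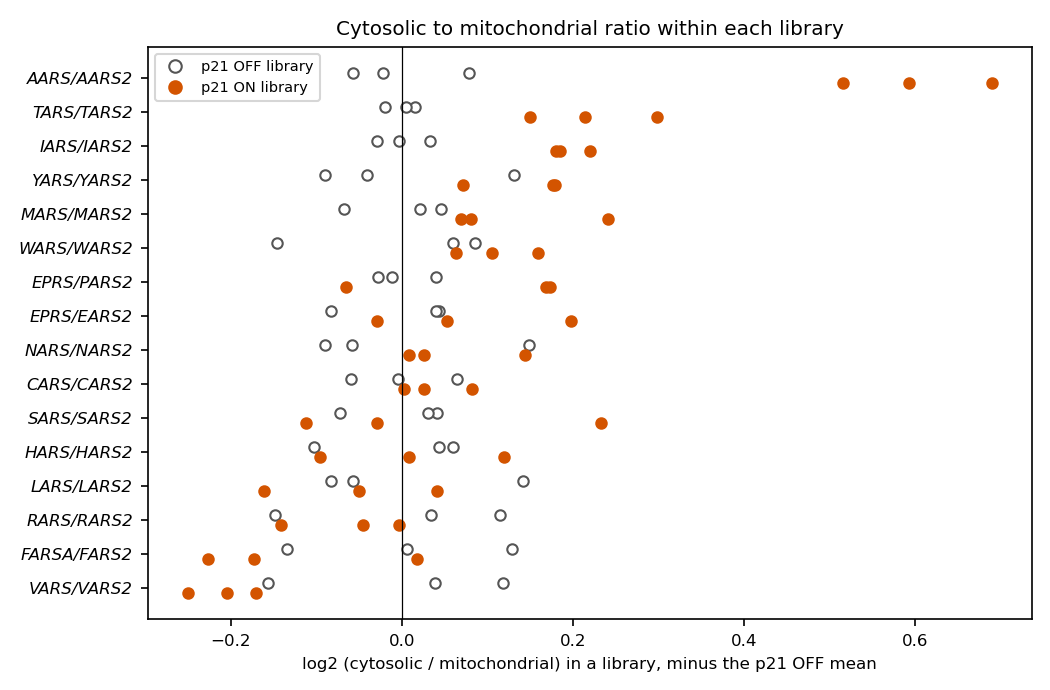
Log2 ratio of cytosolic to mitochondrial normalised read count in each library, minus the mean of the p21 OFF libraries of that pair, for 16 pairs (open, p21 OFF; filled, p21 ON). The AARS to AARS2 ratio is displaced by 0.60 in p21 ON libraries, and in 11 pairs the libraries of the groups overlap.

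The cytosolic genes were next divided by TGATGNAA near the start, shown above. Of the 8 cytosolic genes that held it, 1 was called higher (AARS) and 1 lower (NARS), and their median log2 fold change was -0.05. Of the 12 without a match in the window, none was called higher and 5 were called lower, with a median of -0.12. The background is again 10.5% higher and 12.7% lower of all genes tested. YARS2, the mitochondrial gene with the element, had a log2 fold change of -0.19 that was not called (limma adjusted p = 0.173). In the multisynthetase complex, 3 of the 8 enzymes were lower (KARS, LARS and RARS) and none higher, with a median of -0.07, and of the 12 cytosolic genes outside it 3 were lower and 1 higher, also with a median of -0.07. The genes were also grouped by the fold of the catalytic domain, a grouping chosen after the values were seen. Of 17 class II genes 16 had a log2 fold change below 0, with AARS the exception, and the median was -0.15. Among these class II genes 6 were called lower and 1 higher. Of the 18 class I genes 13 were below 0, with a median of -0.05, and 3 were called lower and 0 higher. Over all genes tested 48.9% were below 0, and 55.2% of those with a mean of at least 200. EPRS carries a domain of each class and was put in neither.

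Genes that work beside the synthetases were read from the same fit, where 10.5% of all genes were called higher and 12.7% lower (10.4% and 16.5% of those with a mean of at least 200). Of the scaffold proteins of the complex, AIMP2 fell, from 773 ± 56.4 normalised read counts with p21 OFF to 630 ± 40.4 with p21 ON (SD, n = 3 each), by -0.29 on the log2 scale (limma adjusted p = 0.0108). AIMP1 and EEF1E1 had log2 fold changes of -0.06 and -0.25 and were not called. Exons of EIF2AK1 on the opposite strand cover 44.4% of the AIMP2 transcript. Of 6 genes for editing of mischarged tRNA and release of peptidyl-tRNA, among them TARSL2, a further cytosolic threonyl enzyme, 1 was called lower, PTRH2 (log2 fold change -0.26, adjusted p = 0.0408), and none higher. TARSL2 had a log2 fold change of -0.10 and was not called.

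Of 21 genes of tRNA maturation and export, 19 were tested, and 6 were lower and 1 higher, beside 12.7% and 10.5% of all genes tested (16.5% and 10.4% of those with a mean of at least 200). The median log2 fold change was -0.18. RPP30, a protein subunit of RNase P, fell by 0.42 (limma adjusted p = 0.00104), SSB, the La protein that binds the 3′ end of new tRNA precursors, fell by 0.31 (limma adjusted p = 0.00341) and ELAC2, which trims that end, fell by 0.24 (limma adjusted p = 0.00955). TSEN54, a subunit of the tRNA splicing endonuclease, rose by 0.23 (limma adjusted p = 0.0145). XPOT, the exporter of tRNA from the nucleus, had a log2 fold change of -0.05 and was not called. Of 6 cytosolic elongation factor genes, EEF1B2 and EEF1D, which reload EEF1A with GTP, were lower by log2 fold changes of -0.31 and -0.20 (adjusted p = 0.00859 and 0.0377 from limma), and none was higher. Of 13 genes of mitochondrial tRNA charging and translation, TSFM, the mitochondrial exchange factor, was lower with -0.21 (limma adjusted p = 0.0462) and none was higher, with a median of -0.14 over the list. Genes on the same strand cover 94.7% of the TSFM transcript, and genes on the opposite strand cover 22.4% of that of SSB and 34.5% of that of EEF1D. GATC and QRSL1, subunits of the amidotransferase that makes mitochondrial glutaminyl-tRNA, had -0.16 and -0.13 and were not called.

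The last list was of uncharged-tRNA sensing and the amino acid response. Of its 25 genes, 9 were called higher and 2 lower, beside 10.5% and 12.7% of all genes tested, and the median log2 fold change was 0.09. CTH, an enzyme of cysteine synthesis, rose by 0.41 (limma adjusted p = 0.000863), PCK2 by 0.42 (limma adjusted p = 0.00101) and CHAC1, a glutathione-degrading enzyme, by 0.59 (limma adjusted p = 0.00284). ATF4 itself fell, with a log2 fold change of -0.34 (limma adjusted p = 0.00171), and CEBPB fell, with -0.24 (limma adjusted p = 0.0305). EIF2AK4, the kinase GCN2 that senses uncharged tRNA, had a log2 fold change of -0.04 and was not called. TGATGNAA was in the window of 5 of the 25, and 4 of these 5 were called higher (ASNS, ATF3, CHAC1 and SLC7A11). Of the 8 cytosolic synthetases with the same letters, 1 was called higher. The other response genes called higher, CTH, PCK2, TRIB3, VLDLR and DDIT3, had no match in the window, nor had ATF4 and CEBPB, which were called lower. ASNS, which makes asparagine, went from 413, 387 and 388 normalised read counts with p21 OFF to 475, 551 and 517 with p21 ON, without overlap (log2 fold change 0.37, adjusted p = 0.00319), while NARS, which charges it, was lower as given above. An annotated gene on the same strand covers 99.5% of the ASNS transcript, and genes on the opposite strand cover 12.6% of that of CEBPB and 8.97% of that of SLC7A11. The difference between the response genes and the synthetases was not tested.

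**Figure D5:**
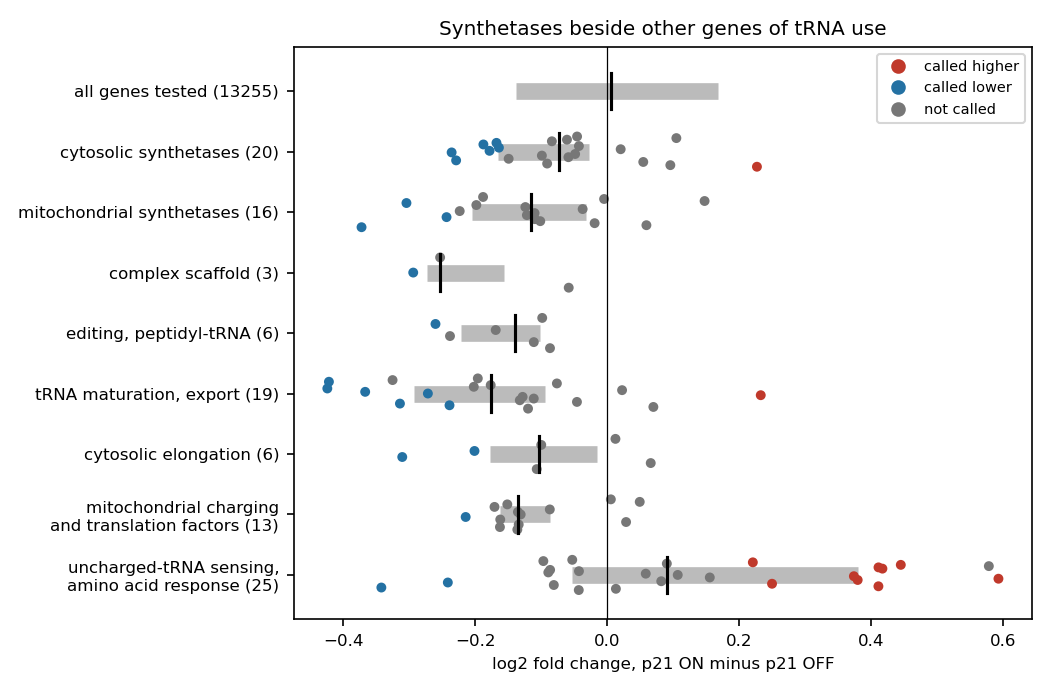
Log2 fold change of the tested genes of each list (points, coloured by the limma call) with the list's median (black line) and interquartile range (grey bar), and the same for all 13255 genes tested. Both synthetase lists sit slightly left of 0 with medians of -0.07 and -0.12, and the amino acid response list extends to 0.59.

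Transcript length moved with the fold changes over all genes: across the 12620 genes tested with an annotated length, the Spearman correlation of canonical length with log2 fold change was 0.36, a description across genes, which are not independent replicates. The median length was 2705 bases over the cytosolic and 2620 over the mitochondrial synthetases, against 3398 over the tested genes. With the trend on length taken out of each library, an alternative chosen after seeing the data, the cytosolic genes gave 1 called higher and 4 lower with a median of -0.07, and the mitochondrial genes 3 lower with a median of -0.09, beside 10.5% of all genes higher and 13.1% lower.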

How the data were processed

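The authors made stranded mRNA libraries, sequenced single-end reads in one lane, mapped them to hg19 with STAR, counted them per gene name with HTSeq and divided the counts by DESeq2 size factors. The deposited table holds this signal, normalised read counts of 0 or above, and tool versions and the strand setting are not given in the sources used here. Of the values, 100% came out as whole reads (tolerance 0.001 reads) when divided by the smallest step of their library, and edgeR with TMM on those reads called 1401 genes higher and 1647 lower.

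Here limma 3.58.1 (lmFit, eBayes with a trend, R 4.3.3) was run on log2(normalised read count + 1) with no covariate. A gene entered when its mean reached 10, which left 13255, and p-values were adjusted over these by Benjamini-Hochberg with a threshold of 0.05. This scale understates the change of weakly expressed genes. Alternatives were edgeR 4.0.16, DESeq2 1.42.0, other scalings, pseudocounts and filters, a replicate block, an adjusted p under 0.01, removal of a length trend, and each library left out. The 11 other settings counted in the text leave out the 0.01 threshold and the left-out libraries. The tests were tested on simulated data, with effects larger than those of the synthetases, so the test does not cover changes as small as theirs. The criterion for passing was revised in 2 steps, in the end to well-counted genes, after DESeq2 missed the earlier ones. Replicates of a group differed by a chi-square per gene of 2.71 to 9.28, so none was counted as a copy. The comparisons with p21 OFF replicate 1 gave 8.48 and 9.28, and the others gave 2.71 to 3.97.

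Positions, lengths and starts are from GENCODE release 44 on GRCh37, the build of hg19, which matched 19725 of 23228 rows and all 36 members. The members and lists were chosen with earlier results of these data known. Lists are therefore described without a p-value, by counts, medians, quartiles, means, sums and shares of reads. The permutation p-values of single pairs carry the same limit. Library values are given for up to 5 members of each compartment with the lowest adjusted p in each direction, for GARS, KARS and CDKN1A, and for the 3 pairs with the largest change, and up to 3 genes in each direction are named for each other list. Genes named beyond that rule, such as SARS, VARS2 and ASNS, were chosen after their values were seen. Some items, among them the stretch around the element in AARS, are not reported here.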

Additional observations from a re-analysis of the deposited data

How the results depend on the processing

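Over all genes tested, 1393 were called higher and 1681 lower. With an adjusted p under 0.01 these became 616 and 882, with 0 cytosolic genes lower. With 1 library left out in turn the higher genes numbered 695 to 1486 and the lower genes 887 to 1660, the lowest numbers both without p21 ON replicate 1. The 6 cytosolic genes called lower became 3 by edgeR with TMM, by edgeR with DESeq2 size factors, by DESeq2 and without a filter on low values, 2 under scaling by library size alone, 2 with the replicate block, and 1 to 4 with a library left out. Without the filter 18210 genes were tested, and otherwise the cause was not tested. The other 148 comparisons of a count or median with an alternative stayed within 1.5 times or within the replicate spread, including all those of the mitochondrial counts. The cytosolic median of -0.072 moved by less than the replicate SD but by over 1.5 times to -0.028 under scaling by library size alone and to -0.11 without p21 ON replicate 2, and the mitochondrial median of -0.116 to -0.072 under scaling by library size alone. The difference between the list medians ranged from 0.017 to 0.067 over these alternatives and was above 0 in each. Scaling by library size alone moved the median of all genes to 0.05.

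The labels do not say whether libraries with the same replicate number belong together. Across genes, the deviations of same-numbered libraries correlated at -0.06, -0.02 and -0.05, and no library correlated best with its own number. Whether the libraries were paired cannot be told from these correlations. The replicate block gave 1407 genes higher and 1513 lower.

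Values near 0 changed sign, none of them called. Under scaling by library size alone these were QARS (0.0012), EARS2 (0.025), PARS2 (0.0066) and WARS2 (0.039), by DESeq2 WARS2 (0.0040), and with the length trend removed PARS2 (0.0062) and WARS2 (0.015). With a library left out in turn, log2 fold changes ranged from -0.146 to 0.0058 for DARS, -0.00039 to 0.040 for MARS, -0.0768 to 0.0532 for EARS2, -0.157 to 0.031 for PARS2 and -0.048 to 0.033 for WARS2, and log2 ratio differences from -0.044 to 0.064 for HARS to HARS2, -0.106 to 0.014 for LARS to LARS2 and -0.071 to 0.102 for SARS to SARS2. Of single genes 49 comparisons lost a call and 2 gained one, FARSB with the length trend removed and NARS2 without p21 OFF replicate 1.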

Other observations

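RPP25, which encodes another protein subunit of RNase P, fell short of the filter on low values and was not tested. It had 1.26, 5.47 and 7.39 normalised read counts with p21 OFF and 12.8, 12.2 and 11.4 with p21 ON. The groups did not overlap and p21 ON was higher, as in 19.1% of all genes tested. Values this low rest on few reads, and RPP25 was chosen after its values were seen. RPP30, at far higher counts, was lower with p21 ON (488 ± 18.8 with p21 OFF and 364 ± 19.3 with p21 ON, SD, n = 3 each).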
